A study of Mus musculus with 50 samples.

Results

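The genes described here are 6 ligands of the bone morphogenetic protein (BMP) family (Bmp2, Bmp3, Bmp4, Bmp5, Bmp6 and Bmp7), 3 secreted antagonists (Nog, Grem1 and Chrd) and Id1, a transcriptional target of BMP signalling. They were chosen by name, and all 10 are among the 21954 genes of the expression table. Their RNA was measured by bulk RNA-seq in the wound bed of 41 amputated mouse digits, each sequenced as 1 library. The digits came from young adult male C57Bl/6 mice, for which no further allele or agent is named, and in which the terminal phalanx (P3) of digit 3 of the hindlimb was cut. In 29 non-regenerative digits (NR) the labels give an amputation level of 60% to 80% of P3, and they were taken 0, 3, 6, 12 or 24 hours after the cut, or 3, 7, 14 or 21 days after it. Of the NR digits 11 lie below a level of 67%, beyond which digits are generally held not to regenerate, 1 lies at it and 17 above it. The NR digits at 12 hours had levels of 64%, 64% and 67%, so none was above 67%, and those at 0 hours had 62%, 62% and 75%. Each of these times has 3 NR digits except 7 days, which has 5. In 12 intermediate digits (INT) the level was 41% to 55%, and 3 digits each were collected at 0 hours, 24 hours, 14 days and 21 days. The 0-hour digits were also amputated, so changes are counted from the cut. Each library holds a mixture of cell types around the wound, and regenerative digits were not analysed here.

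BMPs are secreted dimers of the TGF-β superfamily that bind pairs of type I and type II serine/threonine kinase receptors, and these phosphorylate Smad1, Smad5 and Smad9, which enter the nucleus with Smad4. Noggin (Nog), Gremlin 1 (Grem1) and Chordin (Chrd) bind BMP ligands outside the cell and keep them from their receptors, and Chordin is cut by metalloproteases such as Bmp1 and Tll1. In the digit, BMPs are known for their part in shaping the skeleton of the limb and in bone formation after amputation of the tip.

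The libraries of the digits held 1468749 to 13011782 expected counts in genes. Levels are given as normalized TPM, a length-corrected abundance put on a common scale across libraries by median ratios, so that genes can be set beside each other. Changes are log2 fold changes of counts with their standard error (SE) from edgeR's quasi-likelihood test, and a gene was called where the Benjamini-Hochberg adjusted p-value over all genes tested was below 0.05 and the change exceeded 2-fold. Libraries NR 7 days replicate 2 and NR 14 days replicate 2 stood apart, with a median Spearman correlation to the other digits of 0.687 and 0.634, and results that rest on them are given with and without them. The labels carry dates of an earlier period (24 digits) and a later one (17 digits), whose meaning is not stated. All digits at 3 and 12 hours were of the earlier period, as was 1 of the 3 NR digits at 0 hours. INT digits at 21 days were all of the earlier and NR digits at 21 days all of the later period, so between them group and period cannot be told apart. The tissue label was checked against markers: those of keratinocytes summed to 22063 to 116700 normalized TPM over the digits and those of skeletal muscle to 0 to 175.5, where the highest value was in NR 7 days replicate 2. In 5 pairs of digits both carry the same animal mark, date and side, among them NR 0 hours replicate 1 with NR 12 hours replicate 3, and INT 14 days replicate 1 with NR 14 days replicate 3. The labels do not say whether such digits came from 1 animal. The paper describes cutting digit 3 of both hindlimbs, that is 1 digit per side, so what a shared label stands for is not stated. The p-values measure the spread between digits.

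Promoters are shown for Bmp5 and Chrd, the members whose course differed most clearly from that of Bmp2 and which were both below their 0-hour digits at 24 hours. A course unlike that of Bmp2 was called for 2 of 9 members and for 18.1% of all genes. At 24 hours 34.5% of all genes had no overlap with 0 hours, up or down. Of the 10 members, 5 matched the RefSeq promoter table of GRCm38.p6 (Bmp4, Bmp5, Bmp6, Chrd and Grem1). The 250 bases before the start site are printed 5′ to 3′ on the gene's strand, and capitals mark GGCGCC, the GC-rich element known from BMP-responsive enhancers, and CAGAC or its reverse complement GTCTG, the Smad-binding core.
Bmp5 (chr9:75775115-75775364, plus strand): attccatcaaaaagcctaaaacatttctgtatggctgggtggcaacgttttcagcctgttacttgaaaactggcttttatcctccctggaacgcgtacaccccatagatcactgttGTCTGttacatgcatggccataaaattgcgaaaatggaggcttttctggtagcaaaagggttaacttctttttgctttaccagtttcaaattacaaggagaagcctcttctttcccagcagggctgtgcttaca
Chrd (chr16:20732877-20733126, plus strand): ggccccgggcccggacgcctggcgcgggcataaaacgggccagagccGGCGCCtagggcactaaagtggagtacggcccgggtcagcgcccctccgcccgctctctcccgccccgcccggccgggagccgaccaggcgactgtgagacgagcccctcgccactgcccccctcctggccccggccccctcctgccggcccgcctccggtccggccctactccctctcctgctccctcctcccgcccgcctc
The Bmp5 stretch had 42.8% G and C with 1 CAGAC core, and the Chrd stretch had 78.0% with 1 GGCGCC, against a median of 52.4% over all promoters in the table. GGCGCC was in 9.59% and CAGAC in 42.2% of the 32851 promoters of that length, searched on both strands. In the same 250 bases Grem1 held 1 of each, Bmp6 held 1 CAGAC and Bmp4 held neither.

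Bmp7 was the main BMP ligand RNA of the wound bed in most digits. It was the highest of the 6 ligands in 33 of 41 digits and had a median share of 42.0% of their summed normalized TPM, while Bmp5 was highest in 4 digits, Bmp4 in 2 and Bmp2 in 1, and Bmp4 and Bmp7 were level in 1. Over the 29 NR digits the median level was 19.8 normalized TPM for Bmp7, 7.59 for Bmp4, 7.14 for Bmp2, 5.96 for Bmp5, 1.75 for Bmp6 and 1.32 for Bmp3. The ranges of Bmp2 (0 to 22.8), Bmp4 (0.158 to 23.4) and Bmp5 (0.168 to 18.4) overlapped, so these neighbours were not separated beyond their spread. In INT digits the medians were 21.8 for Bmp7, 12.3 for Bmp4, 11.6 for Bmp5, 8.72 for Bmp2, 1.32 for Bmp3 and 1.29 for Bmp6. The make-up of the ligands is given by time as a description, without a test. In NR digits the mean share of Bmp2 was 12.7% at 0 hours, 25.8% at 6 hours, 27.8% at 12 hours and 22.8% at 24 hours, and that of Bmp5 was 17.4% at 0 hours and 4.12% at 24 hours. At 7 days, Bmp5 held 29.9% and Bmp2 7.43%, and 24.2% and 9.28% without the library that stood apart. In INT digits the share of Bmp2 was 13.02% to 18.0% in the group means.

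**Figure D1:**
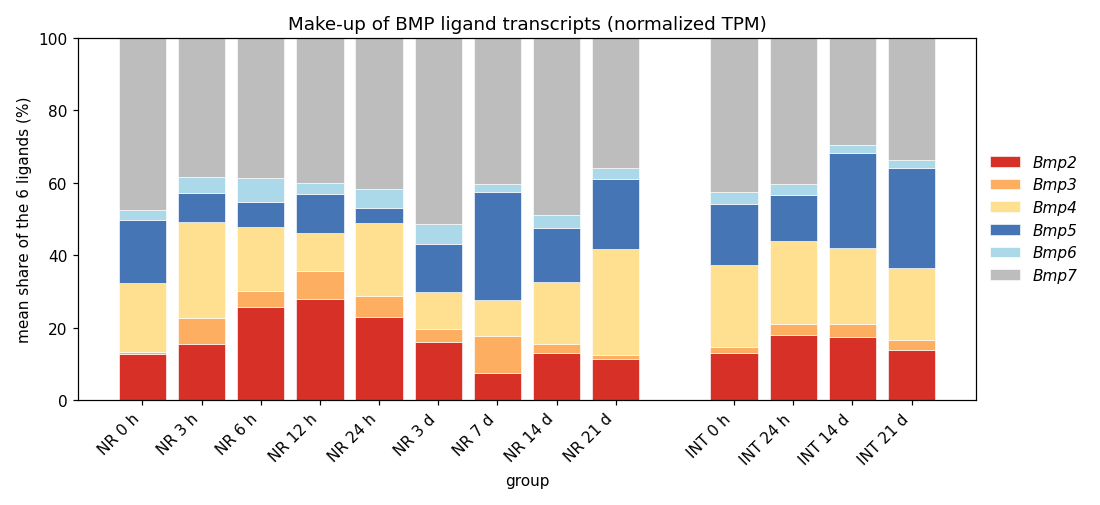
Mean share (%) of each of 6 BMP ligands in their summed normalized TPM, as stacked bars for the 9 NR and 4 INT groups. The Bmp2 part is widest at 12 hours in NR digits (27.8%) and the Bmp5 part is narrowest at 24 hours (4.12%).

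Bmp2 (chromosome 2, 133552159 to 133562885, GRCm38, plus strand), the BMP best known for starting bone repair, was above its 0-hour level in every NR digit taken from 6 to 24 hours, by a modest amount. The 0-hour digits had 6.67, 6.36 and 6.53 normalized TPM. At 6 hours the digits had 22.8, 7.94 and 10.7, at 12 hours 12.4, 9.20 and 11.1, and at 24 hours 8.35, 7.88 and 11.4. All 9 of these digits were above all 3 digits at 0 hours, and 28.2%, 36.8% and 34.5% of all genes averaging 1 or more had no overlap between the groups at these times. The order was the same within label dates: the earlier digits were at 6.67 at 0 hours and at 7.94 to 22.8 at 6 and 24 hours, and the later ones at 6.36 and 6.53 against 10.7 at 6 hours and 7.88 at 24 hours. The log2 change was 1.125 (SE 0.37, adjusted p = 0.106) at 6 hours, 0.79 (SE 0.22, adjusted p = 0.040) at 12 hours and 0.55 (SE 0.24, adjusted p = 0.143) at 24 hours. The 12-hour change passed the p threshold, but at 1.73-fold it was under the fold threshold, so Bmp2 was called at none of the 8 times. DESeq2 called it at 6 hours (adjusted p = 0.0375). Its level was 6.16 ± 1.10 (SD, n = 3) at 3 days and 6.58 ± 0.82 (SD, n = 3) at 21 days. At 7 days the digits ranged from 0 to 7.30 with a median of 2.69, the 0 being the library that stood apart, and without it the mean was 4.04 ± 2.66 (SD, n = 4). Over the 9 time points Bmp2 did not pass the F test (adjusted p = 0.410, and 0.0990 without the 2 libraries that stood apart).

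Bmp3 (chromosome 5, 98854415 to 98884396, plus strand), a BMP that is known to oppose the bone-forming ones, had the largest called change of the 10 genes, a rise from a very low level in the first day. At 0 hours its normalized TPM was 0.155, 0.859 and 0.151, from 3 to 30 counts. The 12-hour digits had 4.61, 2.95 and 1.75, and the 24-hour digits had 2.27, 2.60 and 2.47. Every digit at 12 and 24 hours was above every digit at 0 hours, and 36.8% and 34.5% of all genes had no overlap, up or down, at these times. Bmp3 was called at 12 hours (log2 change 2.98, SE 0.74, adjusted p = 0.0280) and at 24 hours (2.83, SE 0.69, adjusted p = 0.0274). At 6 hours the digits had 3.32, 1.89 and 1.75 and the log2 change was 2.76 (SE 0.74, adjusted p = 0.0658). A 3-hour digit had 10.04 and the NR 7 days replicate 2 had 10.5, while their group mates were at or below 2.34. The calls were lost when 1 digit was left out: the adjusted p was 0.0610 to 0.0834 without any single digit at 12 or 24 hours or without NR 0 hours replicate 3, with log2 changes of 2.36 to 3.22. Without NR 0 hours replicate 2 they were 4.58 and 4.46, and limma on normalized TPM gave 1.54 and 1.35. Within the earlier label dates the digits were at 0.155 at 0 hours, 1.75 to 4.61 at 12 hours and 2.27 and 2.47 at 24 hours, and within the later dates at 0.859 and 0.151 against 2.60.

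Bmp5 (chromosome 9, 75775364 to 75900310, plus strand), a ligand known from skeletal development, fell while Bmp3 rose. Its normalized TPM was 12.7, 6.82 and 6.76 at 0 hours, 3.39, 2.68 and 6.40 at 12 hours, and 0.565, 1.999 and 2.36 at 24 hours. No 12-hour or 24-hour digit reached the lowest 0-hour digit, where 36.8% and 34.5% of all genes had no overlap, up or down. The log2 change was −1.41 (SE 0.31, adjusted p = 0.0189) at 12 hours and −2.34 (SE 0.50, adjusted p = 0.0167) at 24 hours, and both were called. Within the earlier dates Bmp5 was at 12.7 at 0 hours, at 2.68 to 6.40 at 12 hours and at 0.565 and 2.36 at 24 hours, and within the later dates at 6.82 and 6.76 against 1.999. The 12-hour call was lost without NR 12 hours replicate 2 or 3 (adjusted p = 0.0548 and 0.0660), and the 24-hour call held without any single digit. The digits then had 7.23, 2.85 and 5.49 at 3 days, 6.64 to 16.1 with a median of 11.7 at 7 days, and 12.3, 5.19 and 17.4 at 21 days. At 14 days they had 18.4, 0.168 and 4.66, the lowest being the library that stood apart. The F test over the whole course gave an adjusted p of 0.205, and of 0.00521 without the 2 libraries. Genes overlap Bmp5 in the annotation, Gm47723 on its strand and Gm26903 on the other, and use of strand in the counting is not stated in the sources used here. In all, 4 of 67 tests of a member at a time against 0 hours in NR digits were called, 2 of 8 members tested at 12 hours and 2 of 9 at 24 hours, where 11.4% and 10.7% of all genes tested were called. At 6 hours, 3 days, 7 days and 21 days no member was called, where 4.85%, 0.723%, 0.0537% and 0.452% of all genes were. At 3 hours and 14 days edgeR called no gene at all, with 1362 and 1044 genes at an unadjusted p under 0.05. Over the 67 tests of members, 17 had an unadjusted p under 0.05, and DESeq2 called 7. Over all genes 25.6%, 35.1% and 32.9% had such a p at 6, 12 and 24 hours, and DESeq2 called 8.45%, 15% and 13.6%. With all 41 digits in 1 fit none of the 4 calls was kept, and the lowest adjusted p was 0.0845, for Bmp5 at 24 hours. Neutrophil markers moved over the same time: their summed normalized TPM was 15.1 to 20.3 at 0 hours, 379 to 1072 at 12 hours and 1125 to 1236 at 24 hours, and all 3 of the 4 markers tested rose at both times. Fibroblast markers summed to 1144 to 2032 at 0 hours and 500 to 1161 at 24 hours, where 1 of 4 fell. Osteoblast markers summed to 216 to 432 at 0 hours and 57.2 to 189 at 24 hours (1 of 6 fell), and smooth muscle markers to 235 to 803 and 187 to 235 (2 of 4 fell). Their part in the Bmp3 and Bmp5 changes was not tested, and fewer cells of a type and less RNA per cell cannot be told apart in bulk tissue.

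**Figure D2:**
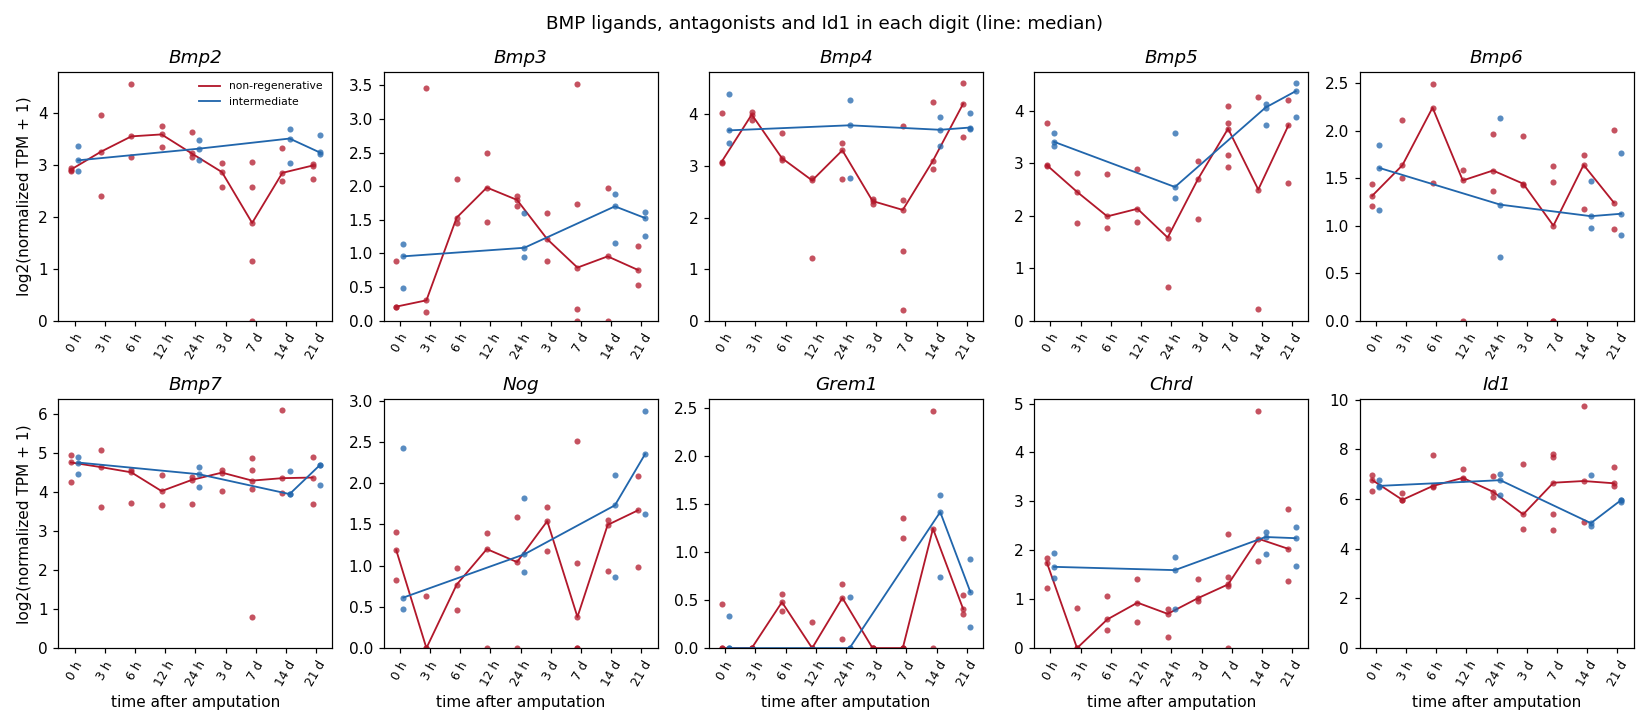
log2(normalized TPM + 1) of the 10 genes against time after amputation, with 1 point per digit and lines through the medians of NR (red) and INT (blue) digits. Bmp2 and Bmp3 stand above their 0-hour points at 6 to 24 hours in NR digits and Bmp5 stands below its own.

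Bmp4, Bmp6 and Bmp7 were called at no time against 0 hours. Bmp4 (chromosome 14, 46383520 to 46390669, minus strand), a close relative of Bmp2, had 7.45, 15.4 and 7.38 normalized TPM at 0 hours. By 3 days the digits had 3.99, 4.15 and 3.83, and those of 21 days had 17.5, 10.8 and 23.4. The 3 digits at 3 days were below all digits at 0 hours, and 16.1% of all genes had no overlap, up or down, in this comparison. The log2 change was −1.39 (SE 0.39, adjusted p = 0.195). Its F test over the course gave an adjusted p of 0.205, and of 0.0274 without the 2 libraries. Bmp7 (chromosome 2, 172868012 to 172940321, minus strand), which is known for its part in kidney and skeleton, had log2 changes of −0.56 to 0.00 over the 8 times (adjusted p from 0.206). Its digits lay between 11.3 and 32.8 normalized TPM apart from the 2 libraries that stood apart, which had 0.746 and 68.6. INT digits ranged from 5.77 to 20.0 in Bmp4 and from 14.5 to 29.01 in Bmp7. Bmp4 and Bmp6 overlap other genes on the opposite strand in the annotation (Gm15217 and Gm15222, and 4930579J19Rik and Txndc5). Bmp6 (chromosome 13, 38345107 to 38500302, plus strand), known for controlling hepcidin in the liver, was at 0 to 4.63 normalized TPM in NR and 0.594 to 3.38 in INT digits. Its NR digits had 1.49, 1.31 and 1.71 at 0 hours and 4.63, 1.72 and 3.73 at 6 hours. All 6-hour digits were above the 0-hour ones, as 28.2% of all genes had no overlap here. The log2 change was 1.22 (SE 0.49, adjusted p = 0.164) at 6 hours, near that of Bmp2, and −0.17 (SE 0.91, adjusted p = 0.913) at 12 hours.

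Chrd was the antagonist with the highest median level in both groups, with 1.35 normalized TPM in NR and 2.71 in INT digits, followed by Nog with 1.04 and 2.21. Chrd (chromosome 16, 20733127 to 20742384, plus strand) had 2.36, 1.35 and 2.59 normalized TPM at 0 hours. It had 0.756, 0 and 0 at 3 hours, 0.297, 0.501 and 1.10 at 6 hours, and 0.168, 0.625 and 0.749 at 24 hours, while the 12-hour digits had 0.439, 1.68 and 0.904. All 9 digits at 3, 6 and 24 hours were below the 0-hour digits. At 3 hours 18.6% of all genes had no overlap between the groups, and the later shares are given with Bmp2. The log2 change at 24 hours was −2.12 (SE 0.69, adjusted p = 0.0693), from 2 to 11 counts per digit against 23.5 to 42 at 0 hours. DESeq2 called it (adjusted p = 0.0229). At 14 days the digits had 2.44, 27.7 and 3.71, the highest being the library that stood apart. Chrd was the 1 member that passed the F test over the NR course (adjusted p = 0.0471, and 0.0274 without the 2 libraries), where 7.62% of all genes passed, but with the label date as a further term the adjusted p was 0.173. It was lost in 22 of 29 fits that left out 1 digit, with an adjusted p of up to 0.209, the highest without NR 14 days replicate 2. It overlaps Thpo on the other strand. Nog (chromosome 11, 89300638 to 89302332, minus strand) was at 0 in 6 of 29 NR digits, and in INT digits it ranged from 0.391 to 6.32 normalized TPM. Grem1 (chromosome 2, 113746164 to 113758646, minus strand) was at 0 in 14 NR digits and passed the count filter in none of the NR comparisons. Its highest level was 4.51 in NR 14 days replicate 3. INT digits had 0.259, 0 and 0 at 0 hours and 1.67, 2.02 and 0.669 at 14 days (log2 change 3.64, SE 1.04, adjusted p = 0.153, and 0.0131 with DESeq2).

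**Figure D3:**
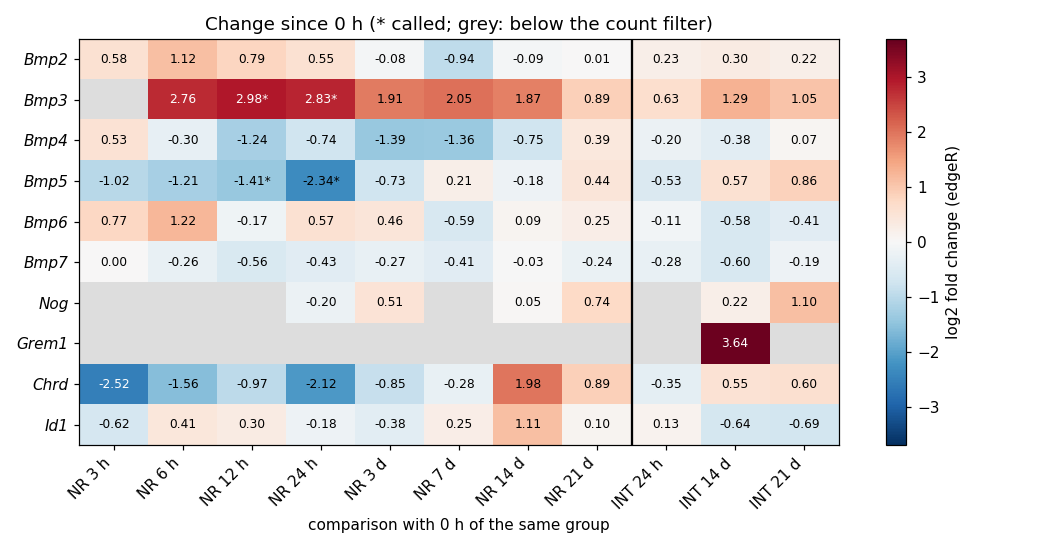
log2 fold change since 0 hours of each gene (rows) in 8 NR and 3 INT comparisons (columns), with red for higher and blue for lower. The 4 starred cells are Bmp3 (2.98 and 2.83) and Bmp5 (−1.41 and −2.34) at 12 and 24 hours in NR digits, and grey cells did not pass the count filter.

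The course of Bmp2 was set against each other member within the same digit. The difference of log2 CPM between the gene and Bmp2 was fitted over the 9 NR time points with limma, and Bmp5 (adjusted p = 0.00758) and Chrd (adjusted p = 0.00410) differed from Bmp2 in their course. With a prior count of 0.5 Bmp5 did not pass (adjusted p = 0.0546). In the main fit 2 of 9 members and 18.1% of all genes differed from Bmp2. The change of Bmp5 was below that of Bmp2 by a log2 difference of −2.91 (SE 1.115) at 24 hours and above it by 2.03 (SE 0.998) at 7 days. For Chrd the difference was −3.28 (SE 1.10) at 3 hours, −2.44 (SE 1.10) at 24 hours and 1.60 (SE 1.10) at 14 days. The 3-hour value rests in part on shallow libraries in which Chrd was at 0. No single time passed on its own for Bmp5 or Chrd over all digits, with adjusted p-values from 0.144. Without the 2 libraries that stood apart Bmp5 passed at 24 hours (−2.92, SE 0.71, adjusted p = 0.0239), while its difference at 7 days was 0.99 (SE 0.67) and that of Chrd at 14 days 0.41 (SE 1.085). For Bmp7 the difference at 12 hours was −1.30 (SE 0.82), and it did not pass the test over all digits. Without the 2 libraries 4 members differed from Bmp2: Bmp5 (adjusted p = 0.000167), Chrd (0.00212), Grem1 (0.0189) and Bmp7 (0.0418), against 33.7% of all genes. Spearman's rho between Bmp5 and Chrd was 0.41 over the 29 NR digits, 0.68 without the 2 libraries and 0.70 over the 12 INT digits. That of Bmp2 with Chrd was −0.36 over the NR digits, −0.49 without the 2 libraries and 0.34 over the INT digits. Each value describes digits that share time points.

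**Figure D4:**
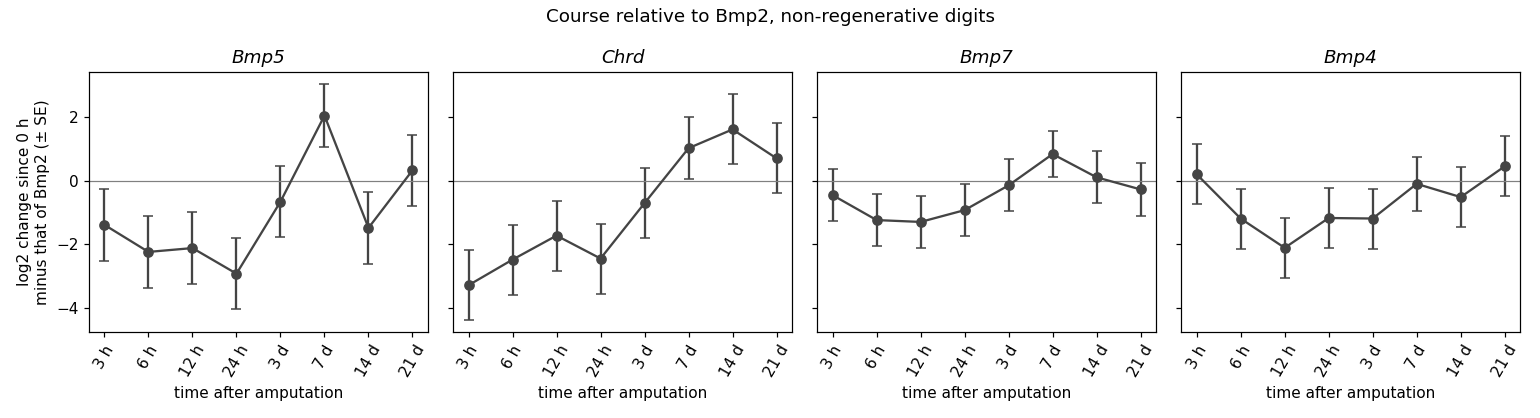
log2 change since 0 hours of Bmp5, Chrd, Bmp7 and Bmp4 minus that of Bmp2 in the same NR digits, against time, with bars for ± SE and 0 for a course equal to that of Bmp2. Bmp5 and Chrd lie below 0 up to 3 days and above it at 7 days (2.03 and 1.012, and 0.99 and 0.82 without the 2 libraries that stood apart).

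Id1 (chromosome 2, 152736251 to 152737410, plus strand), an inhibitor of basic helix-loop-helix factors that BMP signalling switches on, differed by the label date within groups more than any other member. Its F test over the NR course gave an adjusted p of 0.789. In 8 of the 9 groups that hold digits of both periods, every digit of the later dates was above every digit of the earlier dates, and the exception was INT at 24 hours. No other member split this way in more than 5 of the 9 groups. These groups hold few digits, most of them 3, and the share of all genes that split this way was not counted. At 3 days the earlier digits had 40.8 and 27.2 normalized TPM and the later one 168.9. At 7 days the earlier digits had 26.0 and 41.5 and the later ones 100.3, 207.9 and 223.8. At 14 days in INT digits the earlier ones had 31.7 and 29.4 and the later one 123.1. With a term for the period beside the 13 group means, Id1 was higher in the later digits by 1.43 on the log2 scale (SE 0.26, edgeR adjusted p = 0.000293), and by 1.31 (SE 0.20, adjusted p = 1.09e-05) without the 2 libraries, where 8.23% and 19.7% of all genes passed. None of the other 9 members passed, with adjusted p-values from 0.548 and from 0.110.

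Within the earlier dates alone, Id1 had a course in both groups. In NR digits it had 79.9 at 0 hours, 61.2 to 75.5 at 3 hours, 88.3 and 91.2 at 6 hours, 109.8 to 148.1 at 12 hours, 67.1 and 77.7 at 24 hours, 27.2 and 40.8 at 3 days, 26.0 and 41.5 at 7 days, and 33.2 at 14 days. The F test over these 16 digits gave an adjusted p of 0.00170, with 10.4% of all genes called. In the 8 INT digits of the earlier dates it had 87.7 and 91.7 at 0 hours, 107.7 at 24 hours, 29.4 and 31.7 at 14 days and 58.4 to 62.0 at 21 days (adjusted p = 0.00142, with 12.4% of all genes called). Bmp5 also passed within the earlier dates, in NR (adjusted p = 0.0309) and INT digits (0.0135). Within the later dates Id1 lay between 90.5 and 223.8 in NR digits apart from NR 14 days replicate 2 (871.5), and its course did not pass without the 2 libraries (adjusted p = 0.170, 11 digits). In the later period 0.00651% of all genes had a course, and 2.61% without the 2 libraries. A test of whether its course differed between the periods gave an adjusted p of 1 in 20 NR digits and 0.133 without the 2 libraries (unadjusted p = 0.000651), so the difference of courses was not shown. These within-period fits were chosen after the values were seen. Digits of the later dates were sequenced more deeply, with a median of 9637123 counts against 5370852. Summed keratinocyte markers were above in 7 of the 9 groups and summed endothelial and macrophage markers below in 7 each. Amputation levels of NR digits also differed by date at some times. At 14 days the earlier digit had 63% and the later ones 77% and 80%, and at 6 hours 60% and 74% stood against 76%. At 3 days (68% and 70% against 69%) and 24 hours (63% and 73% against 68%) the later digit lay between the earlier ones. The part of depth, markers and level in the Id1 difference was not tested.

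**Figure D5:**
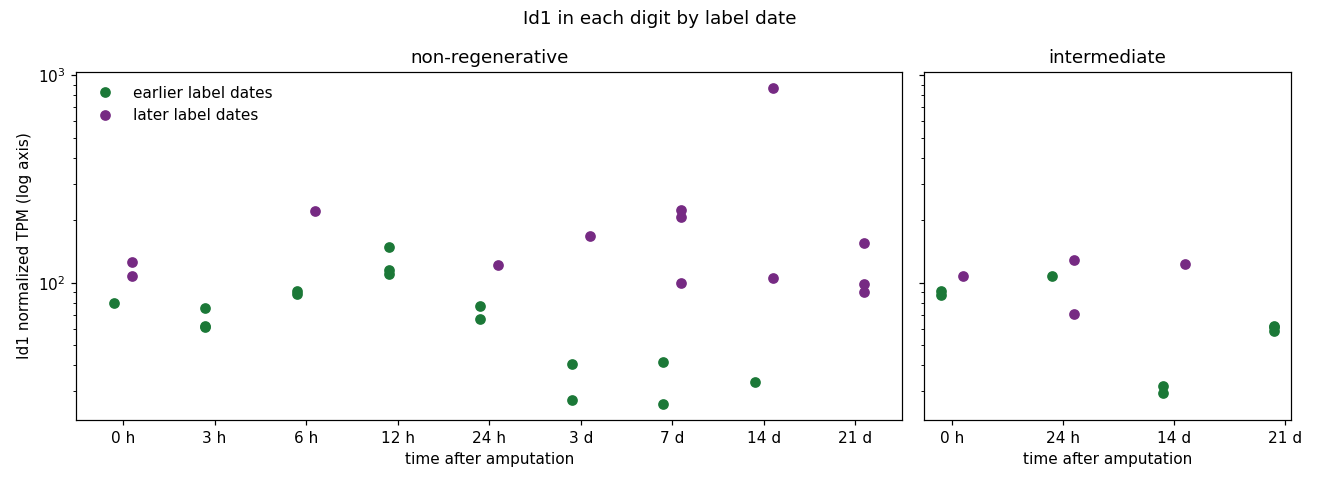
Id1 normalized TPM (log axis) in each digit against time after amputation, for NR (left) and INT digits (right), with green for earlier and purple for later label dates. At 3 to 14 days the green points lie at 26.0 to 41.5 and the purple points at 100.3 and above.

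In the INT digits none of the 27 tests of a member against 0 hours was called, where 0.0152%, 1.68% and 1.39% of all genes were called at 24 hours, 14 days and 21 days. At an unadjusted p under 0.05 there were 7, where 15.4%, 13.4% and 16.6% of all genes had such a p at these times. DESeq2 called 1 (Grem1 at 14 days), and of all genes it called 2.65%, 3.8% and 3.09%. Bmp5 had 10.95, 9.03 and 9.65 normalized TPM at 0 hours, 4.86, 4.09 and 11.005 at 24 hours, and 19.8, 13.7 and 22.1 at 21 days. The 21-day digits were all above the 0-hour digits, and 20.5% of all genes had no overlap here (log2 change 0.86, SE 0.20, adjusted p = 0.0744), and the F test over the INT course gave an adjusted p of 0.0545, where 6.21% of all genes passed. Id1 had a log2 change of −0.69 (SE 0.15, adjusted p = 0.0589) at 21 days. Bmp2 in INT digits had 7.53, 9.36 and 6.44 at 0 hours and 8.97, 10.2 and 7.59 at 24 hours, with a log2 change of 0.23 (SE 0.24, adjusted p = 0.677).

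Between INT and NR digits at the same time, none of 37 member tests was called, where 0%, 0%, 0% and 0.648% of all genes were called at 0 hours, 24 hours, 14 days and 21 days. At an unadjusted p under 0.05 edgeR gave 491 genes at 0 hours, 1472 at 24 hours, 270 at 14 days and 1927 at 21 days. Of the member tests 5 had such a p (Bmp3, Bmp5 and Chrd at 24 hours, and Bmp3 and Id1 at 21 days). DESeq2 called 2 member tests (Bmp5 at 24 hours and Bmp3 at 21 days). Of all genes it called 0.126% at 0 hours, 1.19% at 24 hours, 0% at 14 days and 1.49% at 21 days. Bmp5 at 24 hours had 4.86, 4.09 and 11.005 in INT against 0.565, 1.999 and 2.36 in NR (log2 difference 2.02, SE 0.57, adjusted p = 0.334). These digits did not overlap, which held for 15.6% of all genes. Chrd had 2.02, 0.743 and 2.63 in INT against 0.168, 0.625 and 0.749 in NR (1.98, SE 0.76, adjusted p = 0.403). Bmp2 differed by −0.06 (SE 0.25, adjusted p = 0.939) at 24 hours. The test of whether the course differed between the groups called no member and no gene of 14768 with edgeR (1048 at an unadjusted p under 0.05, and 3 with DESeq2). Id1 at 21 days was lower in INT digits by a log2 difference of −0.96 (SE 0.23, adjusted p = 0.109), and here the groups differ wholly in label date.

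Other genes of the pathway were followed in 5 lists. Of the other ligands, 3 of 10 were tested at 6, 12 and 24 hours, and at each time 1 rose and 1 fell in NR digits. Inhba, a subunit of activins, rose by 1.68 (SE 0.38, adjusted p = 0.0422), 3.16 (SE 0.40, adjusted p = 0.00254) and 3.27 (SE 0.39, adjusted p = 0.00178) on the log2 scale at 6, 12 and 24 hours, and by 2.43 (SE 0.36, adjusted p = 0.0151) in INT digits at 14 days. Gdf10, also known as BMP3B, fell by 2.84 at 12 hours (SE 0.44, adjusted p = 0.00555) and by 2.67 at 24 hours (SE 0.32, adjusted p = 0.00173). Of 15 antagonists and modulators, 11 were tested at 12 hours and 10 at 24 hours, and at each time 3 rose and 2 fell. Over all genes tested 3.23% rose and 1.62% fell at 6 hours, 6.76% and 4.64% at 12 hours, and 5.57% and 5.14% at 24 hours. Fst, which binds activin and some BMPs, rose by 2.38 (SE 0.29, adjusted p = 0.00235) at 12 hours. Nbl1, a further secreted antagonist, fell by 1.70 at 12 hours (SE 0.47, adjusted p = 0.0409). The median log2 change over this list was −0.22 at 12 hours and −0.28 at 24 hours, against −0.03 and −0.04 over all genes tested.

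With edgeR none of the 11 receptors and co-receptors was called against 0 hours at any time in either group, with 10 or 11 tested, and 20 of these 116 tests had an unadjusted p under 0.05, where 4.34% to 35.1% of all genes did in a comparison. The F test over the INT course passed for 1 of them. Of 8 genes of Smads and their regulators, Smurf1, a ligase that marks Smads for degradation, rose at 24 hours in NR digits (log2 change 1.14, SE 0.17, adjusted p = 0.00446). Of the response genes in NR digits, 0 rose and 2 fell of 8 tested at 12 hours, and 1 rose and 2 fell of 10 at 24 hours. Over all genes tested 6.76% rose and 4.64% fell at 12 hours, and 5.57% and 5.14% at 24 hours. Id4, a relative of Id1, fell by 1.75 at 24 hours in NR digits (SE 0.24, adjusted p = 0.00317). Runx2 and Sp7, transcription factors of osteoblasts, rose in INT digits at 14 days by 1.93 (SE 0.20, adjusted p = 0.00494) and 3.25 (SE 0.52, adjusted p = 0.0199), where 1.49% of all genes rose. The osteoblast markers, which include Sp7, rose in 6 of 6 at that time, with a summed normalized TPM of 213 to 562 at 0 hours and 4640 to 6378 at 14 days. Their part in the Runx2 and Sp7 changes was not tested. Bmp2 in the same digits had 7.20, 10.4 and 11.9 normalized TPM against 6.44 to 9.36 at 0 hours.

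Cultured macrophages carried Bmp2, Grem1 and Id1 at levels that split by state, while Bmp3 had at most 3 counts in any library. The 9 libraries of bone marrow-derived macrophages from female C57BL/6 mice were untreated (M0), treated with interferon gamma and lipopolysaccharide (M1) or with interleukin 4 (M2), 3 each, with 15683424 to 27904773 counts. The labels give 24 hours for M1 and M2 and call M0 a baseline without a time. By the labels, treatment and time in culture therefore cannot be told apart. Bmp2 had 28.2, 23.7 and 28.9 normalized TPM in M0, 2.20, 2.32 and 2.46 in M1, and 8.83, 7.23 and 7.79 in M2. The groups did not overlap, and Bmp2 was lower by a log2 change of −3.52 (SE 0.10, edgeR adjusted p = 7.89e-12) in M1 and −1.82 (SE 0.09, adjusted p = 1.91e-08) in M2, both against the same M0 libraries. Grem1, whose median over the NR digits was 0.0682, had 11.05, 13.3 and 14.2 in M0, 81.9, 74.2 and 80.5 in M1, and 26.6, 21.9 and 24.7 in M2. Digit and macrophage levels were deposited as separate sets, so a common scale between them is not given. Mixed tissue is also set beside cultured cells here. Grem1 was higher in M1 by 2.63 (SE 0.08, adjusted p = 1.60e-11), and its change of 0.86 (SE 0.10) in M2 stayed under 2-fold. Id1 had 8.38, 8.18 and 8.93 in M0, 18.8, 16.9 and 16.6 in M1, and 59.6, 57.7 and 60.2 in M2, a log2 change of 1.05 (SE 0.12, adjusted p = 5.57e-06) and 2.76 (SE 0.08, adjusted p = 2.98e-10). Against M0, 5 of 6 members tested were called in M1 and 4 of 6 in M2, and between M1 and M2 7 of 7 were called, where 46.1%, 22.3% and 48% of all genes were called. The calls against M0 include genes at no more than 1.52 normalized TPM in any macrophage library. In M1 these were Bmp6 (log2 change 4.04, SE 0.55) and Bmp5 (−4.21, SE 0.59). In M2 they were Bmp4 (1.63, SE 0.32) and Bmp7 (−1.33, SE 0.30). These tests were added after the values were seen. The labels do not say whether the libraries came from separate cultures or animals, so these p-values measure the spread between libraries.

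The 5 genes whose level followed Bmp2 most closely over the 41 digits were none of the members. Spearman's rho with Bmp2 was 0.705 for Yap1, a co-activator of the Hippo pathway, 0.683 for Srsf6, a splicing factor, 0.678 for Kif13a, a kinesin, 0.669 for Rapgef5, an exchange factor of Rap proteins, and 0.665 for Polr1a, the large subunit of RNA polymerase I, among 13690 genes with a mean of at least 1. Of the other members Bmp3 came first with 0.296 (position 1573) and Chrd last with −0.158 (position 10307), and Grem1 was below that mean. The digits share time points, groups and depth, so these values are a description.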

How the data were processed

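Wound-bed RNA-seq of 29 NR and 12 INT digits was analysed, with groups, levels and dates from the sample labels. The authors mapped reads with Bowtie to mouse genes of GRCm38 (Ensembl annotation) and deposited an expected count per gene from RSEM 1.2.3, without normalization. They also deposited a signal called normalized TPM, that is TPM brought to a common scale across libraries by median ratios. Reads that fit several genes are shared out by RSEM, so counts of overlapping genes are estimates. For the digits, 26 gene symbols stored as dates were put back.

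Expected counts were rounded and tested per pair of groups with edgeR 4.0.16 in R 4.3.3 (filterByExpr, TMM, quasi-likelihood test, Benjamini-Hochberg adjustment), and courses by F tests. EBSeq, which the study used, was not run. The course relative to Bmp2 was fitted with limma 3.58.1 on log2 CPM with a prior count of 2. Alternatives were DESeq2 1.42.0, other filters, priors and fits, and leaving out each digit. The tests were checked on simulated data with a fixed dispersion and with changes set only in well-counted genes. That check did not cover changes in genes of few counts or libraries that stand apart. Where a library holds 0 counts of a gene, up to 3 remain possible from counting error alone.

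The members and lists were chosen with earlier results of these data known. Named genes are the members, up to 3 called genes per pathway list with the largest change, and the 5 genes nearest to Bmp2. A gene that this rule names is not reported here. Macrophage tests and fits within a label period were added after the data were seen. Coordinates are those of GENCODE M21 on GRCm38.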

Additional observations from a re-analysis of the deposited data

Results flagged for a closer look

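Within NR digits at 7 days, the only group with enough digits for such a test, 2 of 10 members had a digit that lay far from the other 4 by Dixon's criterion. Bmp3 was 10.5 normalized TPM in replicate 2, the library that stood apart, where the other digits were at 0 to 2.34. Nog was 4.71 normalized TPM in replicate 4, where the others were at 0 to 1.04. Chance flags about 1 in 20 groups, and 10 members were examined.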

How the results depend on the processing

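The 4 calls of NR digits against 0 hours became 7 with DESeq2, 0 with all digits in 1 fit, 0 with the label date added to that fit, and 1 with limma on normalized TPM, and 2 to 5 when 1 digit was left out, with 2 without NR 0 hours replicate 3 or NR 12 hours replicate 2 or 3. The largest Bmp5 change, at 24 hours, held when any single digit was left out, with an adjusted p of 0.0845 in the fit of all digits and 0.0713 with the label date. The count of 0 for INT digits became 1 with DESeq2 and 0 to 1 without 1 digit (1 without INT 14 days replicate 1 or INT 21 days replicate 2), and that between the groups 2 with DESeq2 and 0 to 1 without 1 digit (1 without INT 24 hours replicate 1). Of the 1 member with a course in NR digits, 0 remained with the label date as a term and with limma on normalized TPM. The count was 3 with DESeq2, 4 without the 2 libraries that stood apart, 2 within the earlier dates, 0 within the later dates with or without the 2 libraries, and 0 to 2 without 1 digit. In INT digits the count of 0 became 1 without a count filter, 1 with DESeq2, 2 within the earlier dates and 0 to 1 without 1 digit (Id1 without INT 14 days replicate 1, Bmp5 without INT 24 hours replicate 3). The 2 members that differed from Bmp2 became 1 with a prior count of 0.5, 4 without the 2 libraries, and 2 to 4 without 1 digit (4 without NR 7 days replicate 5), and Bmp5 and Chrd were among those called in each fit without 1 digit. The cause of these moves was not tested. None of the 4 called changes of Bmp3 and Bmp5 reversed in the alternatives run for them. No paired analysis was possible for digits because the labels carry no replicate numbers and at most 1 pair of digits in any comparison shares a mark, side and date. For the macrophages a replicate block left the number of members called at 5, 4 and 7, and leaving out 1 library gave 4 to 5, 4, and 6 to 7. Chrd, Nog and Grem1 rest on few counts per digit, which limits what could be detected.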
